A study of Mus musculus with 6 samples.

Results

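Ribosome density was compared between a library labelled colon that carries the mRNAs of kidney and a library labelled brain that carries the mRNAs of small intestine, to find which absorptive and transport mRNAs these epithelia share and which differ. Members of the comparison were the mRNAs listed in both libraries with 10 or more reads in at least 1 of them, which held for 10146 of the 11192 mRNAs listed in both (90.7%) and of the 18437 listed in any of the 6 libraries of the series. A further 1046 mRNAs with 10 or more reads were listed only in the library labelled colon, and 647 only in that labelled brain. At the read minimum, the 26 members whose higher count was 10 reads had a median absolute log2 ratio of 1.08, and the 25 mRNAs just outside it, at 9 reads, had a median of 1.09.

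The series holds ribosome profiling (Ribo-seq), the sequencing of mRNA fragments that translating ribosomes protect from RNase, of 6 tissues from untreated wild-type (WT) C57BL/6J mice aged 4 weeks. There was 1 library for each tissue label, and the labels do not say how many animals each library holds. Values are RPKM, the reads on a coding sequence (CDS) per kilobase of CDS, scaled to the reads on all CDSs of the library, so that levels of different mRNAs can be set side by side. With 1 library a side no test was possible, and the 95% intervals of ratios are exact intervals for counting error only, from reads without molecular identifiers. Total reads on CDSs were 4504853 in the library labelled colon and 10635031 in that labelled brain. Because these are whole tissues, fewer cells of a type and less mRNA per cell cannot be told apart.

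The markers went against both labels, and the libraries are called kidney-like (labelled colon) and intestine-like (labelled brain) from here on. Umod (uromodulin, chr7:119061934-119078505, GRCm39), the main urinary protein made by the thick ascending limb, was at 16438 RPKM in the kidney-like and 449 RPKM in the intestine-like library, and at 10.9 RPKM in the library labelled kidney. Apoa4, an enterocyte apolipoprotein, was at 53.0 RPKM in the kidney-like and 3368 RPKM in the intestine-like library, against 57.5 RPKM in the library labelled small intestine. The defining mRNAs of the labelled tissues were not listed or low. Muc2, the gel-forming mucin of colon, was highest under the kidney label (2486 RPKM) and was at 1.15 RPKM under the colon label. In the library labelled brain Gfap was not listed and Snap25 had 0.761 RPKM, against 683 RPKM in the library labelled small intestine. Kri1, an mRNA for a nucleolar protein, took 6.79% of all CDS reads in the kidney-like and 2.01% in the intestine-like library, and the ratios were also computed without it. From here on, pairs of values are in the order kidney-like, intestine-like.

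Absorptive epithelia of the nephron and of the gut face a fluid-filled lumen with a brush border and move solutes inward through apical transporters, most of them driven by the sodium gradient that the basolateral sodium pump maintains. The proximal tubule recovers glucose, amino acids, phosphate and filtered proteins from the glomerular filtrate, later segments adjust salt, water and acid, and organic anion and cation transporters secrete drugs and waste. The enterocyte takes up the products of digestion, and the ileum in addition recovers bile acids.

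Over all members the log2 ratio of RPKM + 1, kidney-like over intestine-like, had a median of 0.09, with 5% of members below -3.10 and 5% above 3.49. Folds given with an interval are ratios of RPKM without the added 1. The log2 ratio was 1 or more for 3005 members (29.6%), called higher in the kidney-like library below, and -1 or less for 2537 (25.0%), called higher in the intestine-like library. A ratio of 8-fold or more was found for 747 members toward the kidney-like library (7.36%) and for 546 toward the intestine-like library (5.38%). Members within 2-fold and at 10 RPKM or more in both libraries, called shared, numbered 2610 (25.7%). The shares 29.6%, 25.0% and 25.7% of all members are those to set beside the counts of each list below. Few reads stood behind the lower side of the 8-fold classes, since 445 of the 747 had fewer than 10 reads in the intestine-like library and 315 of the 546 in the kidney-like library. Of the 747, 394 (52.7%) were highest in the kidney-like library among all 6 libraries, and of the 546, 338 (61.9%) were highest in the intestine-like library. Both classes were chosen for a high level in that same library, so a raised share follows from the rule. The share over all members was not computed.

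**Figure D1:**
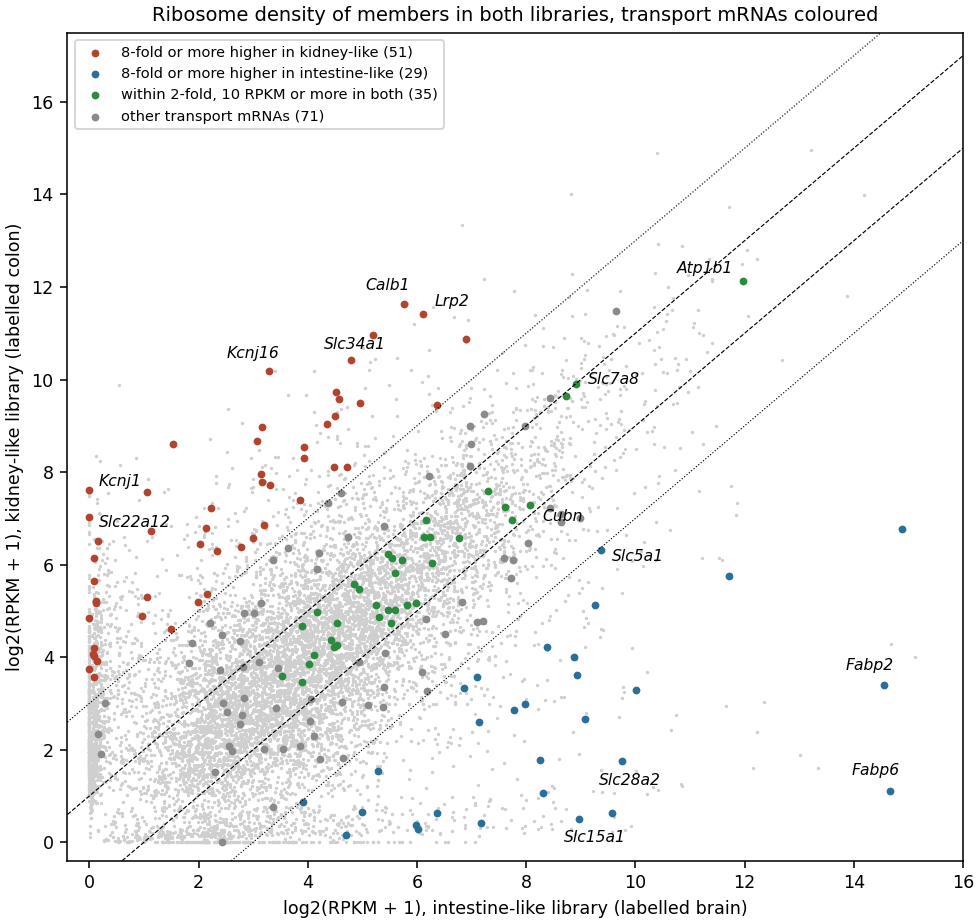
Ribosome density of the 10146 members, as log2(RPKM + 1), in the intestine-like library (x axis) and the kidney-like library (y axis). Small light grey points are all members and larger points are the 186 transport mRNAs by class (red and blue, 8-fold or more; green, shared; dark grey, other), dashed lines mark 2-fold and dotted lines 8-fold, and the transport mRNAs spread to both edges, with 51 beyond 8-fold toward the kidney-like and 29 toward the intestine-like library.

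Transport mRNAs lay on both sides. By this name are meant the 230 mRNAs of 11 lists, which hold transporters, channels, pumps and carriers. The lists also hold mRNAs of endocytosis, lipoproteins and lipid storage, such as Rab11a, Apoa1 and Plin2. Of the 230, 186 were members, 21 were listed only in the kidney-like library and 2 only in the intestine-like library. The other 21 were unlisted in either or under the read minimum. Over all mRNAs with 10 or more reads, 1046 were listed only in the kidney-like library and 647 only in the intestine-like library. Among the 186 members, 79 (42.5%) were higher in the kidney-like library, against 29.6% of all members, and 59 (31.7%) were higher in the intestine-like library, against 25.0%. The 8-fold classes held 51 (27.4%) toward the kidney-like and 29 (15.6%) toward the intestine-like library, against 7.36% and 5.38% of all members, and 35 (18.8%) were shared, against 25.7%. Summed over the lists, transport mRNAs took 9.43% (95% Wilson interval 9.41 to 9.46) of the CDS reads in the kidney-like and 9.41% (9.39 to 9.43) in the intestine-like library. Both totals include Kri1, which took a larger part of the kidney-like reads, and the shares without Kri1 were not computed. The transport reads were made up differently, since Lrp2 (megalin) alone had 172017 of the 424993 transport reads of the kidney-like library, whereas Apoa1, Fabp6 and Fabp2 had 255085, 106535 and 101164 of the 1000981 of the intestine-like library.

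**Figure D2:**
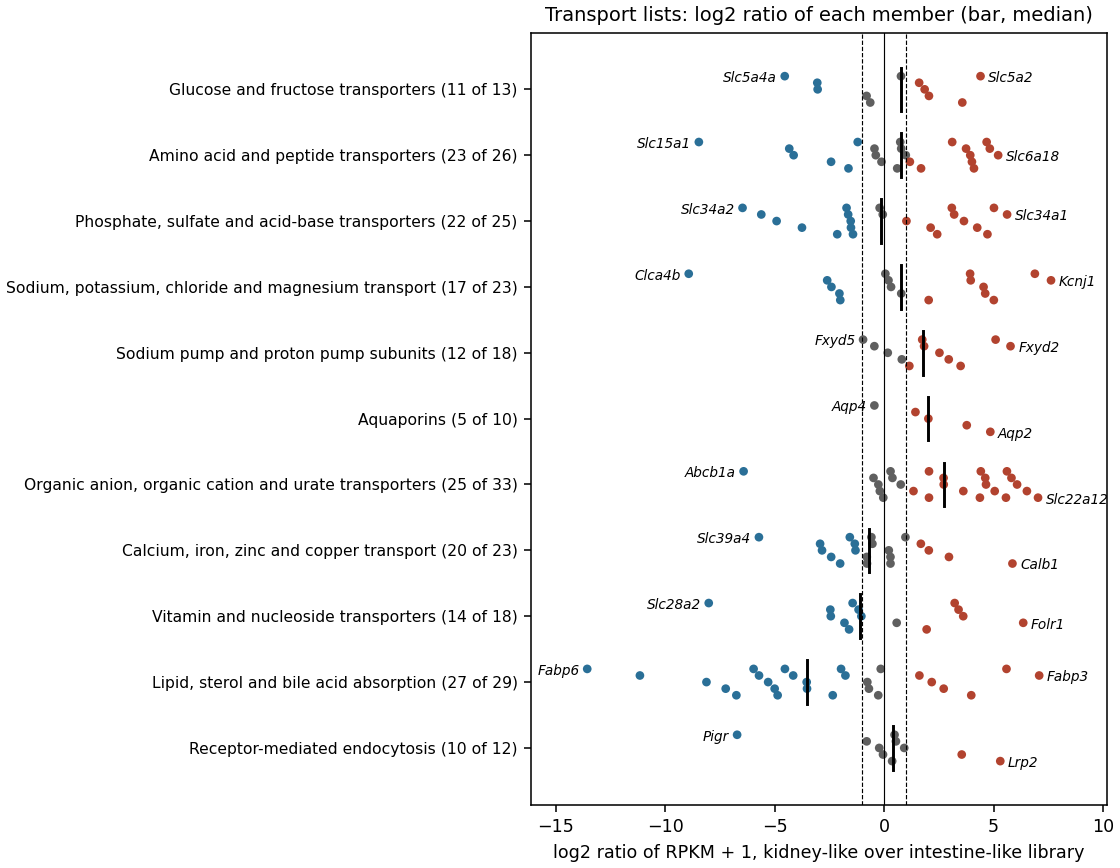
Log2 ratio of RPKM + 1, kidney-like over intestine-like, for each member of the 11 transport lists, with the number of members and of list genes in brackets. Red points are 2-fold or more higher in the kidney-like library, blue points in the intestine-like library and dark grey points lie within 2-fold, black bars are medians, and the medians run from -3.52 for lipid, sterol and bile acid absorption to 2.72 for organic ion transporters.

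Sugar transporters divided by isoform. Slc5a2 (SGLT2), the bulk glucose carrier of the early proximal tubule, had 209 and 8.94 RPKM and was 23.4-fold (95% interval 20.2 to 27.3) higher in the kidney-like library. Slc5a1 (SGLT1), the high-affinity glucose carrier of the enterocyte and the late proximal tubule, had 79.1 and 657 RPKM and was 8.30-fold (95% interval 7.70 to 8.96) higher in the intestine-like library. Slc5a10, which carries mannose and fructose in the proximal tubule, lay with Slc5a2 at 94.0 and 6.99 RPKM. The facilitative carrier Slc2a2 (GLUT2), the exit of glucose on the basolateral side of both epithelia, was at 75.7 and 17.6 RPKM, and no other library exceeded 2.17 RPKM. Slc2a5 (GLUT5), for fructose, was at 95.1 and 25.6 RPKM and elsewhere at most at 6.37 RPKM. Both were thus higher in the kidney-like library but above the other 4 libraries in both. Slc5a11, an inositol carrier, was shared at 35.1 and 61.9 RPKM, against at most 0.261 RPKM in the other 4 libraries. Slc5a4a, a relative of SGLT1, had 1 read in the kidney-like and 521 reads in the intestine-like library, and its neighbour Slc5a4b, a close copy, was listed only in the intestine-like library with 502 reads. Of the 11 members of 13 genes on the list, 5 were higher in the kidney-like library, 3 in the intestine-like and 2 shared, with a median log2 ratio of 0.77.

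Amino acid and peptide carriers held 7 shared mRNAs among 23 members, beside 10 higher in the kidney-like and 6 higher in the intestine-like library (median log2 ratio 0.78). Of the 23, 30.4% were shared and 26.1% higher in the intestine-like library, near the 25.7% and 25.0% of all members. A further 43.5% were higher in the kidney-like library, against 29.6% of all members. The 7 shared were Slc7a8, Slc43a2, Slc16a10, Slc3a2, Slc6a6, Slc1a5 and Slc7a7. The exchanger Slc7a8 (LAT2) was at 958 and 482 RPKM, and its highest level elsewhere was 84.6 RPKM. It was just inside the 2-fold limit, with a log2 ratio of 0.99, and was outside it, at 1.06, when Kri1 was left out of the scaling. Slc16a10 (TAT1), for aromatic amino acids, was at 123 and 71.2 RPKM, and Slc43a2 (LAT4), for neutral ones, was at 149.7 and 195 RPKM. The taurine carrier Slc6a6 was at 34.1 and 37.1 RPKM and the glutamine carrier Slc1a5 at 46.9 and 27.8 RPKM.

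Other carriers of the list were higher in 1 of the libraries. Slc6a18 (B0AT3), for glycine and neutral amino acids, was at 848 and 22.0 RPKM, 38.6-fold (95% interval 35.0 to 42.7) higher in the kidney-like library. Its partner subunit Cltrn (collectrin) was 26.9-fold higher there. Slc6a19 (B0AT1), the main neutral amino acid carrier of the gut, was at 149 and 345 RPKM, with at most 5.36 RPKM elsewhere. The subunits of the cystine carrier were on different sides, with Slc3a1 (rBAT) at 779.8 and 345 RPKM and Slc7a9 (b0,+AT) at 35.7 and 113 RPKM. Slc7a13, another partner of rBAT, had 80 reads (12.4 RPKM) in the kidney-like library and 0 in the other 5. The peptide carrier Slc15a1 (PEPT1) had 4 reads in the kidney-like and 11296 reads in the intestine-like library, and its relative Slc15a2 (PEPT2) had 158 reads in the kidney-like library and 1 read in the intestine-like. Slc6a20a and Slc6a20b, which carry imino acids, were at 11.7 and 67.4 RPKM and at 249 and 7.80 RPKM, but they are close copies, and dropping reads that map to several places may affect them unequally.

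Of the phosphate, sulfate and acid-base carriers, 10 of 22 members were higher on each side and 1 was shared (median log2 ratio -0.13). At 8-fold or more, 7 were higher in the kidney-like and 4 in the intestine-like library, and 3 more were listed only in the kidney-like. Slc34a1 (NaPi-IIa), the main phosphate carrier of the proximal tubule, was at 1361 and 26.8 RPKM, 50.9-fold (95% interval 46.7 to 55.5) higher in the kidney-like library, and Slc34a3 (NaPi-IIc) was at 35.5 and 2.97 RPKM. Slc34a2 (NaPi-IIb), the form of intestine and lung, was at 2.44 and 304 RPKM, 124-fold (95% interval 82.8 to 196) higher in the intestine-like library, with 817 RPKM in the library labelled lung. The sulfate carrier Slc13a1 and the citrate carrier Slc13a2, both known from kidney and gut, were 2.89-fold and 3.15-fold higher in the intestine-like library. The dicarboxylate carrier Slc13a3 was 33.8-fold higher in the kidney-like. Of the acid-base carriers, Slc4a4, the basolateral bicarbonate exit of the proximal tubule, was at 701 and 81.4 RPKM, and Slc26a4 (pendrin), of intercalated cells, was at 114 and 8.20 RPKM. Slc9a3 (NHE3), the apical sodium-proton exchanger of both epithelia, had 18.8 and 2.69 RPKM, and Slc9a2 (NHE2) lay the other way at 6.82 and 33.5 RPKM.

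The apical anion exchangers Slc26a3 and Slc26a6 were higher in the intestine-like library, Slc26a3 at 0.293 and 62.2 RPKM and Slc26a6 at 6.25 and 217 RPKM. Of the scaffold proteins that hold such carriers in the apical membrane, Pdzk1 was at 513 and 253 RPKM, just outside the 2-fold limit and at most 3.86 RPKM elsewhere, and Nherf1 was at 120.5 and 398 RPKM.

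Of the sodium, potassium, chloride and magnesium list, 8 of 17 members were higher in the kidney-like library, 5 in the intestine-like and 2 shared (median log2 ratio 0.78), and 4 more were listed only in the kidney-like library. Kcnj1 (ROMK), the potassium channel of the thick ascending limb and collecting duct, had 1039 reads (196 RPKM) in the kidney-like library and none in the intestine-like, which made it at least 818-fold higher with 3 reads as the floor. Kcnj16, a basolateral potassium channel, was at 1161 and 8.83 RPKM, while Kcnj10, the subunit it pairs with in the distal nephron, was shared at 25.8 and 22.3 RPKM. Slc12a1 (NKCC2), the target of loop diuretics, was at 724 and 30.1 RPKM, and Slc12a3 (NCC), the target of thiazides, was at 149 and 3.66 RPKM. Of the epithelial sodium channel, Scnn1a was at 35.2 and 7.84 RPKM, while Scnn1b and Scnn1g had 134 and 308 reads in the kidney-like library and were not listed in the intestine-like. The 5 higher in the intestine-like library were Slc12a2, Cftr, Clca4b, Kcnq1 and Trpm6. Slc12a2 (NKCC1), the basolateral cotransporter of secretory epithelia, was at 51.5 and 209 RPKM, and Cftr, the chloride channel of crypts, was at 2.51 and 17.6 RPKM. Clca4b, a regulator of calcium-activated chloride channels, was at 0.560 and 758 RPKM, 1353-fold (95% interval 657 to 3366) higher in the intestine-like library.

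Of the pump subunits, more were higher in the kidney-like than in the intestine-like library. The beta subunit of the sodium pump, Atp1b1, was shared, at 4490.3 and 4003 RPKM, 1.12-fold (95% interval 1.10 to 1.14) higher in the kidney-like library, and was the most abundant shared transport mRNA by its lower level. Fxyd2, the pump regulator of the nephron, was 56.2-fold (95% interval 44.4 to 72.0) higher in the kidney-like library, at 2008 and 35.8 RPKM, and did not exceed 1.35 RPKM in the other 4 libraries. Subunits of the proton pump of intercalated cells lay on the same side. Atp6v0d2 had 171 reads against 1 read, Atp6v0a4 was at 25.6 and 3.61 RPKM, and the subunits Atp6v1b1 and Atp6v1g3 were listed only in the kidney-like library, with 327 and 465 reads. Of the 12 members 8 were higher in the kidney-like library, none was 2-fold or more higher in the intestine-like and 3 were shared (median log2 ratio 1.78). The remaining member was the pump regulator Fxyd5, at 7.60 and 15.8 RPKM. Its log2 ratio of -0.96 passed the 2-fold limit toward the intestine-like library with a pseudocount of 0.1 RPKM (-1.04), with ratios centred on their median (-1.05) and with the deeper library thinned (-1.14).

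Of 10 aquaporins, the water channels, 5 were members, 4 of them higher in the kidney-like library and 1 shared (median log2 ratio 2.02). Aqp1, of the proximal tubule and of capillaries, was at 610.4 and 149.7 RPKM, and Aqp3, a basolateral channel, was at 113 and 41.2 RPKM. Aqp2, the vasopressin-regulated channel of the collecting duct, had 102 reads in the kidney-like and none in the intestine-like library (at least 80.3-fold higher). Aqp4 was shared, at 31.4 and 43.1 RPKM, and reached 403 RPKM in the library labelled kidney.

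Organic ion transporters had the highest median log2 ratio of the 11 transport lists, 2.72, with 17 of 25 members higher in the kidney-like library, 1 higher in the intestine-like and 5 shared, and 4 more listed only in the kidney-like library. The urate exchanger Slc22a12 (URAT1) had 969 reads (129.7 RPKM) in the kidney-like library and none in the intestine-like (at least 763-fold higher). The basolateral organic anion carrier Slc22a6 (OAT1) had 517 reads against 1 read, and Slc22a8 (OAT3) was at 503 and 7.94 RPKM, 63.3-fold (95% interval 53.3 to 75.7) higher in the kidney-like library. The organic cation carrier Slc22a2 (OCT2) had 584 reads in the kidney-like library and was not listed in the intestine-like. The member higher in the intestine-like library was Abcb1a, which encodes P-glycoprotein, the xenobiotic efflux pump. It was at 5.34 and 541 RPKM, 101-fold (95% interval 82.7 to 126) higher, while its paralog Abcb1b was at 7.02 and 0.221 RPKM.

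The 5 shared members of that list were 3 efflux pumps, a monocarboxylate carrier and an organic anion carrier. Abcg2 (BCRP) was at 193 and 158 RPKM, Abcc2 (MRP2) at 73.9 and 43.3 RPKM, and Abcc3 (MRP3) at 67.8 and 51.9 RPKM. Of these, Abcc2 was at most at 1.60 RPKM in the other 4 libraries, whereas Abcc3 reached 176 RPKM in the library labelled kidney. The monocarboxylate carrier Slc5a8 was at 94.8 and 109 RPKM and the organic anion carrier Slco2b1 at 18.3 and 22.1 RPKM.

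Calcium and metal transport mRNAs lay on both sides, with 4 of 20 members higher in the kidney-like library, 8 in the intestine-like and 3 shared (median log2 ratio -0.68). The calcium buffer of the distal nephron, Calb1 (calbindin-D28k), was at 3169.6 and 53.6 RPKM, 59.2-fold (95% interval 53.8 to 65.2) higher in the kidney-like library. S100g (calbindin-D9k), known from duodenum and kidney, was also higher there, at 512 and 124 RPKM. The vitamin D receptor Vdr lay the other way, at 27.4 and 70.8 RPKM. Of the zinc carriers, the importer Slc39a4 (ZIP4) was at 0.561 and 81.2 RPKM, the importer Slc39a5 (ZIP5) was at 26.6 and 146 RPKM, and the exporter Slc30a1 was shared at 25.6 and 45.1 RPKM. For iron, the oxidase Heph (hephaestin) was at 8.57 and 71.7 RPKM and the importer Slc11a2 (DMT1) at 12.8 and 6.01 RPKM. The iron exporter Slc40a1 (ferroportin) had 21 reads in the kidney-like and 3 in the intestine-like library.

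Of 14 vitamin and nucleoside carriers, 8 were higher in the intestine-like and 5 in the kidney-like library, with none shared (median log2 ratio -1.10). The purine nucleoside carrier Slc28a2 (CNT2) was at 2.35 and 865 RPKM, 367-fold (95% interval 240.2 to 594) higher in the intestine-like library, and the biotin and pantothenate carrier Slc5a6 was at 6.54 and 40.4 RPKM. Folate receptor Folr1, which recovers filtered folate in the proximal tubule, had 313 reads against 1 read, and the reduced folate carrier Slc19a1 was at 82.4 and 5.82 RPKM, whereas the proton-coupled folate carrier of the gut, Slc46a1, was at 3.06 and 8.13 RPKM. Of the ascorbate carriers, Slc23a1, the form of absorptive epithelia, was at 276 and 25.3 RPKM, and the more widespread Slc23a2 was at 69.9 and 191 RPKM.

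Fat, sterol and bile acid absorption had the lowest median log2 ratio of the 11 transport lists, -3.52, with 17 of 27 members higher in the intestine-like library, 14 of them 8-fold or more, 6 higher in the kidney-like and 4 shared. The ileal bile acid binding protein Fabp6 (chr11:43486872-43492469) had 2 reads (1.16 RPKM) in the kidney-like and 106535 reads (26087 RPKM) in the intestine-like library, a ratio of 22563-fold (95% interval 6246 to 186315). The ileal bile acid importer Slc10a2 (ASBT) was at 10.8 and 137 RPKM, and the subunits of the basolateral bile acid exit, Slc51a and Slc51b, were at 17.6 and 331 RPKM and at 15.0 and 466 RPKM. The intestinal fatty acid binding protein Fabp2 was at 9.53 and 24021 RPKM. The apolipoprotein Apoa1 was at 108 and 30284 RPKM, and Apob, the backbone of chylomicrons, was at 11.3 and 484 RPKM. The sterol importer Npc1l1 had 6 reads in the kidney-like and 6059 in the intestine-like library. Of the pair that returns sterols to the lumen, Abcg5 had 2 reads against 1320, and Abcg8 was listed only in the intestine-like library, with 428 reads.

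Members of the same list were shared or lay the other way. The liver-type binding protein Fabp1 was shared, at 125 and 213 RPKM. Slc27a2, a very-long-chain acyl-CoA synthetase of the proximal tubule, was at 1877 and 118 RPKM, 15.9-fold (95% interval 15.2 to 16.6) higher in the kidney-like library. Fabp3 and Fabp4, fatty acid binding proteins of heart muscle and of adipose tissue and endothelium, were at 390.0 and 1.89 RPKM and at 104 and 1.19 RPKM, and the fatty acid receptor Cd36 was at 80.9 and 11.4 RPKM. The library labelled heart had 4421, 291 and 667 RPKM of these 3. Cardiac muscle mRNAs lay the same way, with 8 of 10 at 8-fold or more toward the kidney-like library (myoglobin, Mb, at 315 and 12.2 RPKM) and none at 0 in either library. Their summed level was 941 RPKM in the kidney-like, 31.8 RPKM in the intestine-like and 151987 RPKM in the heart library. Their part in the ratios of Fabp3, Fabp4 and Cd36 was not tested.

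Receptor-mediated endocytosis held the largest shared part of the 11 transport lists, 7 of 10 members, with 2 higher in the kidney-like and 1 in the intestine-like library (median log2 ratio 0.42). Cubn (cubilin), the receptor for vitamin B12 with intrinsic factor in the ileum and for filtered proteins in the proximal tubule, was at 154 and 269 RPKM with at most 4.82 RPKM in the other 4 libraries, and its membrane partner Amn (amnionless) was at 96.1 and 74.4 RPKM with at most 5.09 RPKM. Lrp2 (megalin), the giant receptor that works with cubilin in the kidney, was not shared. It had 2731 and 68.1 RPKM, 40.1-fold (95% interval 39.3 to 40.9) higher in the kidney-like library, and its adaptor Dab2 had 168 and 13.5 RPKM. The neonatal Fc receptor Fcgrt was shared at 96.1 and 68.8 RPKM, as were Rab11a and Ehd1, of recycling endosomes, the lysosomal cystine carrier Ctns and the endosomal chloride exchanger Clcn5, but in at least 1 other library each of these 5 exceeded the lower of its levels in the pair. Pigr, which carries IgA into the gut lumen, was at 8.83 and 1032 RPKM, 117-fold (95% interval 95.3 to 145) higher in the intestine-like library.

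Related genes, most with a form known mainly from kidney and a form known mainly from gut, were then set side by side. The pairs were picked for these known forms, so their counts are descriptions. Over all members, 29.6% were higher in the kidney-like and 25.0% in the intestine-like library. How often unrelated members lie on opposite sides was not computed. Of 13 such pairs, 11 had both genes among the members, and in 7 of the 11 the genes lay 2-fold or more on opposite sides. These were Slc5a2 and Slc5a1, Slc34a1 and Slc34a2, Slc15a2 and Slc15a1, Slc6a18 and Slc6a19, Slc27a2 and Slc27a4, the cadherins Cdh16 (347 and 4.76 RPKM) and Cdh17 (1.07 and 1184 RPKM), and the alkaline phosphatases Alpl (214 and 4.90 RPKM) and Alpi (0.668 and 189 RPKM). Within the kidney-like library, Slc34a1 was 558 times Slc34a2 and Slc5a2 was 2.64 times Slc5a1, and within the intestine-like library Slc34a2 was 11.3 times Slc34a1 and Slc5a1 was 73.5 times Slc5a2. Slc27a4 (26.0 and 136 RPKM) was only 1.16 times Slc27a2 within the intestine-like library. The genes of the other 4 pairs did not lie on opposite sides. Both calbindins were higher in the kidney-like library, both meprin subunits, Mep1a (218 and 519 RPKM) and Mep1b (105 and 631 RPKM), were higher in the intestine-like, and in the pairs Hnf4a and Hnf4g and Slc5a12 and Slc5a8, 1 gene was shared. Of the remaining 2 pairs, the calcium channel Trpv5 had 88 reads in the kidney-like library and was not listed in the intestine-like, and Trpv6 and Fxyd3 were listed in neither.

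**Figure D3:**
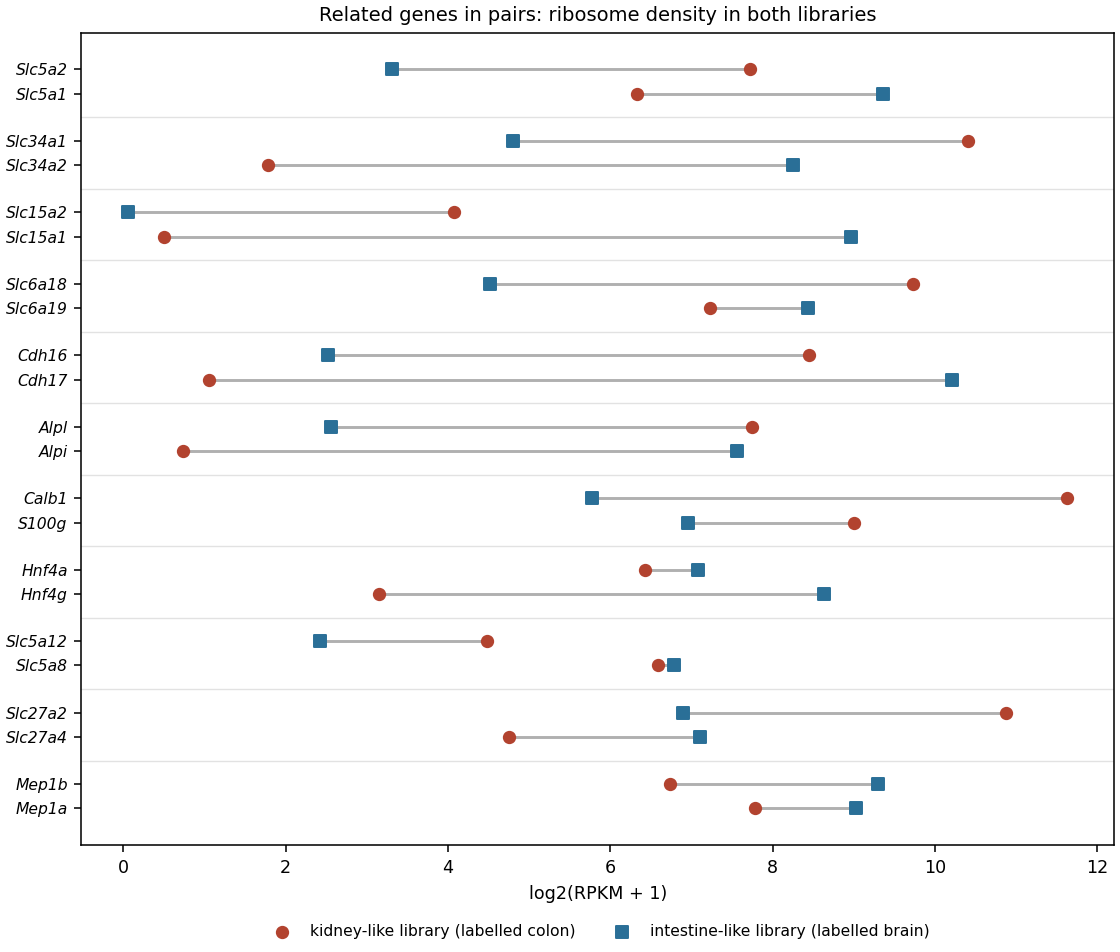
Ribosome density as log2(RPKM + 1) of the genes of the 11 pairs with both genes among the members, in the kidney-like library (circles) and the intestine-like library (squares), with the gene known mainly from kidney on the upper line of most pairs. In the upper 6 pairs the circle lies to the right on the first line and the square on the second, as also for Slc27a2 and Slc27a4, whereas Hnf4a and Slc5a8 lie close together in both libraries.

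The shared mRNAs were next set against the other 4 libraries, since many shared mRNAs are found in every tissue. Of the 2610 shared members, 86 (0.848% of all members) were 2-fold or more above each of the other 4 libraries in both, and 164 (1.62%) were so when the library labelled kidney, which holds abundant mRNAs of large intestine such as Muc2, was left out. Transport mRNAs numbered 8 of the 86 and 13 of the 164, against 35 of the 2610 shared members and 186 of all 10146 members. The 8 were Slc7a8, Abcg2, Cubn, Slc43a2, Amn, Slc16a10, Abcc2 and Slc5a11. Khk (ketohexokinase), which starts fructose breakdown, was the most abundant of the 86 by its lower level, at 1669.5 and 1389 RPKM with at most 81.3 RPKM elsewhere, and Tkfc, a later enzyme of the same route, was at 197 and 172 RPKM. Guca2b (uroguanylin), a peptide that regulates salt handling, was at 241 and 421 RPKM. Calml4 and Anks4b, parts of the complex that links microvilli, were at 249 and 152 RPKM and at 44.1 and 82.8 RPKM. The transcription factor Maf was also among the 86. Outside the lists, and named after their values were seen, were Erich4 (589.8 and 444 RPKM, at most 15.4 elsewhere), the mRNA editing cofactor A1cf (66.2 and 70.3 RPKM), the glycine and taurine conjugating enzymes Glyat (91.2 and 95.9 RPKM) and Baat (41.4 and 30.7 RPKM), and the lipid droplet protein Cideb (22.0 and 24.0 RPKM, at most 0.602 elsewhere).

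**Figure D4:**
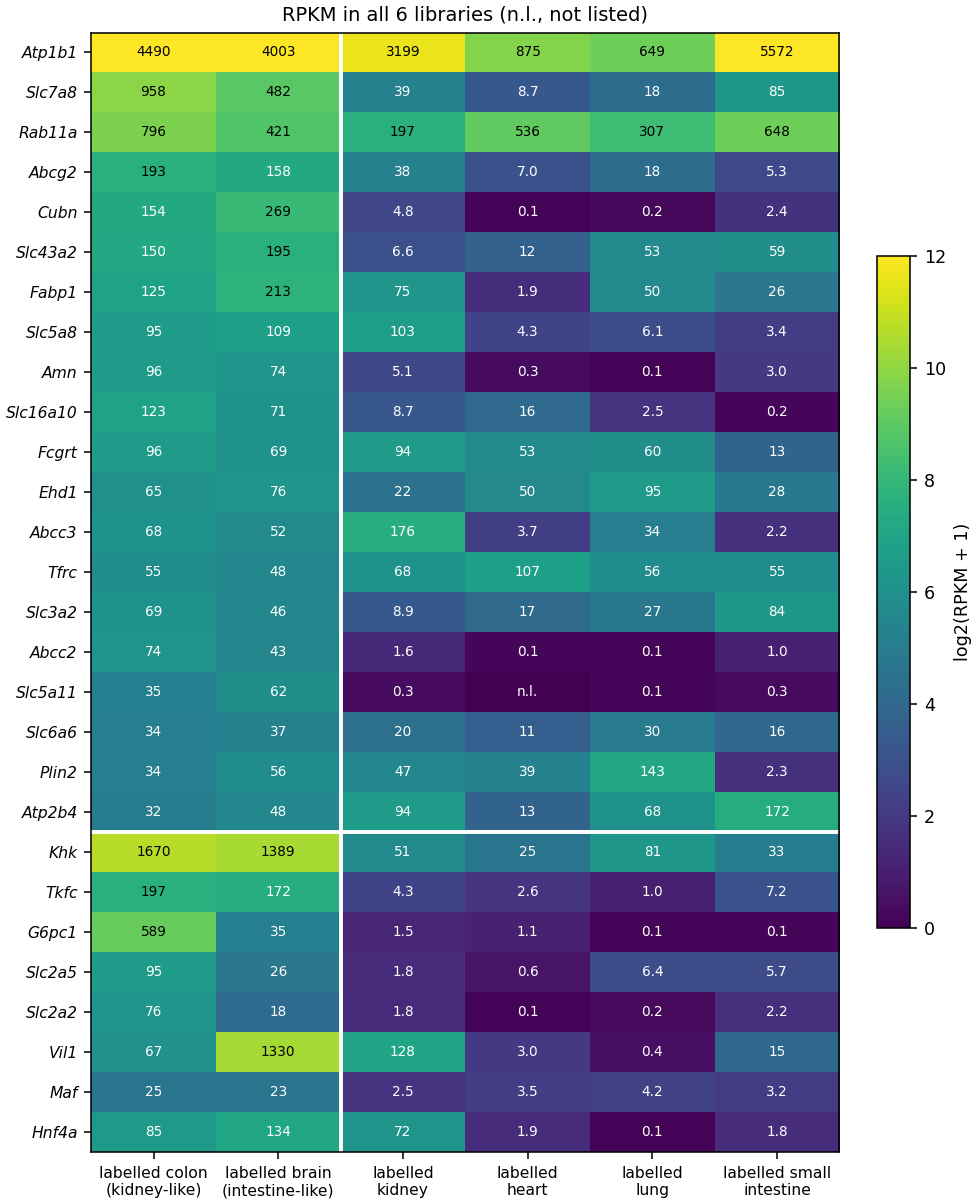
RPKM in all 6 libraries, with log2(RPKM + 1) as colour, of the 20 transport mRNAs with the highest lower level among the shared (above the white line) and of 8 mRNAs of sugar metabolism, the brush border and regulation (below it). Cubn, Amn, Abcc2, Slc5a11 and Tkfc are high only in the 2 left columns, whereas Atp1b1, Rab11a, Tfrc and Plin2 are also high in other libraries, and n.l. marks an mRNA that is not listed.

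Brush border enzymes and structure lay mostly toward the intestine-like library. Of 23 brush border hydrolases among the members, 16 were higher in the intestine-like library, 3 in the kidney-like and 2 shared (median log2 ratio -2.57). The disaccharidases Sis (sucrase-isomaltase) and Lct (lactase) had 27 and 10 reads in the kidney-like library against 45163 and 17416 in the intestine-like. Mgam (maltase-glucoamylase) was at 4.24 and 460.4 RPKM, the aminopeptidase Anpep at 133 and 3690.5 RPKM and the aminopeptidase Enpep at 23.1 and 679 RPKM. Trehalase (Treh), a trehalose-splitting enzyme of both brush borders, was at 97.5 and 299 RPKM with at most 1.74 RPKM elsewhere. Shared were the endopeptidase Mme (neprilysin, 87.3 and 52.8 RPKM) and Ace (37.1 and 54.5 RPKM), and higher in the kidney-like library were Alpl, Folh1 (199 and 9.67 RPKM) and Ggt1 (165 and 77.8 RPKM), which degrades glutathione.

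Of the structural proteins of the brush border, 15 of 18 members were higher in the intestine-like library, none in the kidney-like and 3 shared (median log2 ratio -2.25). Vil1 (villin) was at 67.3 and 1330.3 RPKM, the membrane-linked motor Myo1a at 0.284 and 966 RPKM, and the microvillus-linking cadherin Cdhr2 at 9.50 and 291 RPKM, while Myo6, a motor that moves toward the base of the microvillus, was shared at 80.4 and 66.3 RPKM. Of 25 junction and epithelial mRNAs, 17 were higher in the intestine-like library, 5 in the kidney-like and 3 shared (median log2 ratio -2.29). Claudins divided, with Cldn3, Cldn4, Cldn7 and Cldn15 higher in the intestine-like library (Cldn7 at 69.4 and 2370.3 RPKM, Cldn15 at 20.5 and 652 RPKM), Cldn1, Cldn8, Cldn10 and Cldn16 higher in the kidney-like (Cldn10 at 22.1 and 0.271 RPKM), and Cldn2, the cation-permeable claudin of both leaky epithelia, shared at 339 and 211 RPKM.

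Transcription factors of these epithelia showed shared and separate members. Of 35, 21 were members, 6 were listed only in the kidney-like library and 5 only in the intestine-like (median log2 ratio of the members -0.48). Of the 21, 6 (28.6%) were higher in the kidney-like library, against 29.6% of all members, and 5 (23.8%) were shared, against 25.7%. These shares were near those of all members. A further 9 (42.9%) were higher in the intestine-like library, against 25.0%. Among the shared were Hnf4a (85.4 and 134 RPKM), the bile acid receptor Nr1h4 (FXR, 111 and 96.6 RPKM), Maf (24.7 and 23.4 RPKM) and Ppara (11.1 and 15.9 RPKM). Hnf4g was 50.4-fold (95% interval 38.1 to 68.2) higher in the intestine-like library, at 7.85 and 396 RPKM. The renal factors Pax2, Pax8, Foxi1, Sim1, Emx1 and Emx2 were listed only in the kidney-like library, with between 13 (Emx2) and 293 (Sim1) reads, and the intestinal factors Cdx1, Cdx2, Isx and Nr5a2, with Bhlha15, only in the intestine-like, with between 66 (Cdx1) and 1270 (Isx) reads. Klf5, a factor of crypt cells, was at 11.8 and 1179 RPKM, and Creb3l3, a regulator of lipid metabolism in liver and gut, was at 0.463 and 116 RPKM.

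The 250 bases before the annotated start of each mRNA (GRCm39, GENCODE release M39) were searched on both strands for CAAAGNCCA, a site bound by HNF4 proteins. Capitals below mark a match, either as CAAAGNCCA or as its reverse complement. Some transport, brush border and apolipoprotein mRNAs above with a match, from both sides, are shown as 60-base stretches, chosen after their ratios were seen. They lie before Alpi (chr1:87029329-87029388 on the minus strand), Apoa4 (chr9:46151785-46151844 on the plus strand), Treh (chr9:44584434-44584493 on the plus strand), Slc7a9 (chr7:35148365-35148424 on the plus strand) and Slc13a1 (chr6:24168239-24168298 on the minus strand), higher in the intestine-like library, and before Slc13a3 (chr2:165315269-165315328 on the minus strand) and Slc3a1 (chr17:85335711-85335770 on the plus strand), higher in the kidney-like. The letters start 19, 184, 71, 190, 177, 22 and 68 bases before the mRNA, in that order.
Alpi: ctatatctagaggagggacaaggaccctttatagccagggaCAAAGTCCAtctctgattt
Apoa4: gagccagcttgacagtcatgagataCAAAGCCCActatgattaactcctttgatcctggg
Treh: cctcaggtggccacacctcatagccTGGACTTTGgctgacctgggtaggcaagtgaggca
Slc7a9: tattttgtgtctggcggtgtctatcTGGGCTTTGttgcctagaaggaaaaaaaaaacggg
Slc13a1: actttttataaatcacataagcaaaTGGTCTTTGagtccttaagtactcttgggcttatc
Slc13a3: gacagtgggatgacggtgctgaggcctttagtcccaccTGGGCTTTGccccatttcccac
Slc3a1: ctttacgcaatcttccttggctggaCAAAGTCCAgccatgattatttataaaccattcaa

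Of the 10088 members with such a stretch, 1.76% held the HNF4 letters (1.76% of all 18304 mRNAs listed in any library), against 2.01% of the 8-fold kidney-like class (15 of 745), 3.30% of the 8-fold intestine-like class (18 of 546) and 1.81% of the shared members. CAATAAA, letters bound by CDX proteins, were in 3.27% of the members (3.51% of all mRNAs), 4.16% and 6.59% of the 8-fold classes and 3.16% of the shared. TATAAA, on the strand of the gene and starting 25 to 40 bases before the mRNA, was in 0.734% of the members (1.32% of all mRNAs), 0.805% of the 8-fold kidney-like class, 4.03% of the 8-fold intestine-like class and 0.424% of the shared. No mRNA had matches of different motifs that shared a base. These are counts of letters, and no binding was measured.

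Most metabolic enzymes of the kidney and of the intestinal list were higher in the library of that name, with exceptions in both. Of 20 members of the kidney metabolism list, 18 were higher in the kidney-like library and 2, Cyp4b1 and Acsm3, in the intestine-like (median log2 ratio 5.46). Among the 18 were the plasma glutathione peroxidase Gpx3 (10365 and 112 RPKM), Ass1, for renal arginine synthesis (4599.9 and 149 RPKM), and the inositol oxidase Miox (1189 and 58.2 RPKM). Of the gluconeogenesis and fructose list, 7 of 11 members were higher in the kidney-like library, 1 in the intestine-like and 3 shared (median log2 ratio 1.89). Pck1, which commits carbon to glucose synthesis, was at 2349 and 60.9 RPKM, 38.6-fold (95% interval 36.4 to 40.9) higher in the kidney-like library. G6pc1, which frees glucose, was at 589 and 35.3 RPKM, and at most at 1.48 RPKM elsewhere. Of 20 members of the intestinal metabolism list, 16 were higher in the intestine-like library, 3 in the kidney-like and 1 shared (median log2 ratio -3.74), among them the urea cycle enzymes Cps1 (14.1 and 196 RPKM) and Otc (3.97 and 217 RPKM), which the enterocyte uses to make citrulline, and the carboxylesterase Ces2e (1.32 and 355 RPKM). The retinoid enzymes Retsat and Adh1 were among the 3, with Retsat at 804 and 162 RPKM.

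Markers of nephron segments and of intestinal cell types gave the following. All 7 thick ascending limb members and 14 of 16 proximal tubule members were higher in the kidney-like library, with median log2 ratios of 4.54 and 4.41. The exceptions among the latter were the shared Cubn and Cyp4b1 (57.9 and 134 RPKM). The distal convoluted and connecting tubule had 5 of 7 members on that side, among them Klk1 (kallikrein) at 13509.8 and 3366 RPKM, which was highest in the library labelled kidney at 17498 RPKM, and the collecting duct 6 of 8 members, with 7 further mRNAs listed only in the kidney-like library. Ren1 (renin) had 624 reads and was not listed in the intestine-like library, and Kl (klotho), the FGF23 coreceptor of the distal tubule, was at 96.1 and 1.21 RPKM. Podocyte mRNAs were mixed, with Nphs1 (nephrin) at 130 reads in the kidney-like library only, and 4 of 7 members, Cd2ap, Synpo and Plce1 among them, higher in the intestine-like.

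Enterocyte, goblet and Paneth lists lay on the other side, with 14 of 16, 9 of 9 and 10 of 10 members higher in the intestine-like library and median log2 ratios of -5.48, -7.34 and -8.53. Of 6 members of the ileal list, 4 were higher in the intestine-like library and 2 were shared, Guca2b among them (median log2 ratio -3.85). Besides Fabp6 and Slc10a2, the ileal hormone Fgf15 was listed, in the intestine-like library only, with 145 reads, while of the duodenal iron list Cybrd1 was not listed there. That list did not lie with the other intestinal lists, since of its 4 members the iron exporter Slc40a1 and the calbindin S100g were higher in the kidney-like library and the ferroxidase Heph in the intestine-like (median log2 ratio 1.33). Enteroendocrine peptides Gip, Sct, Nts and Gcg had between 319 (Gcg) and 922 (Sct) reads there and were not listed in the kidney-like library, as were 7 others of that list, and of 13 crypt and proliferation members 9 were higher there (Lgr5, of stem cells, with 144 reads against none).

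**Figure D5:**
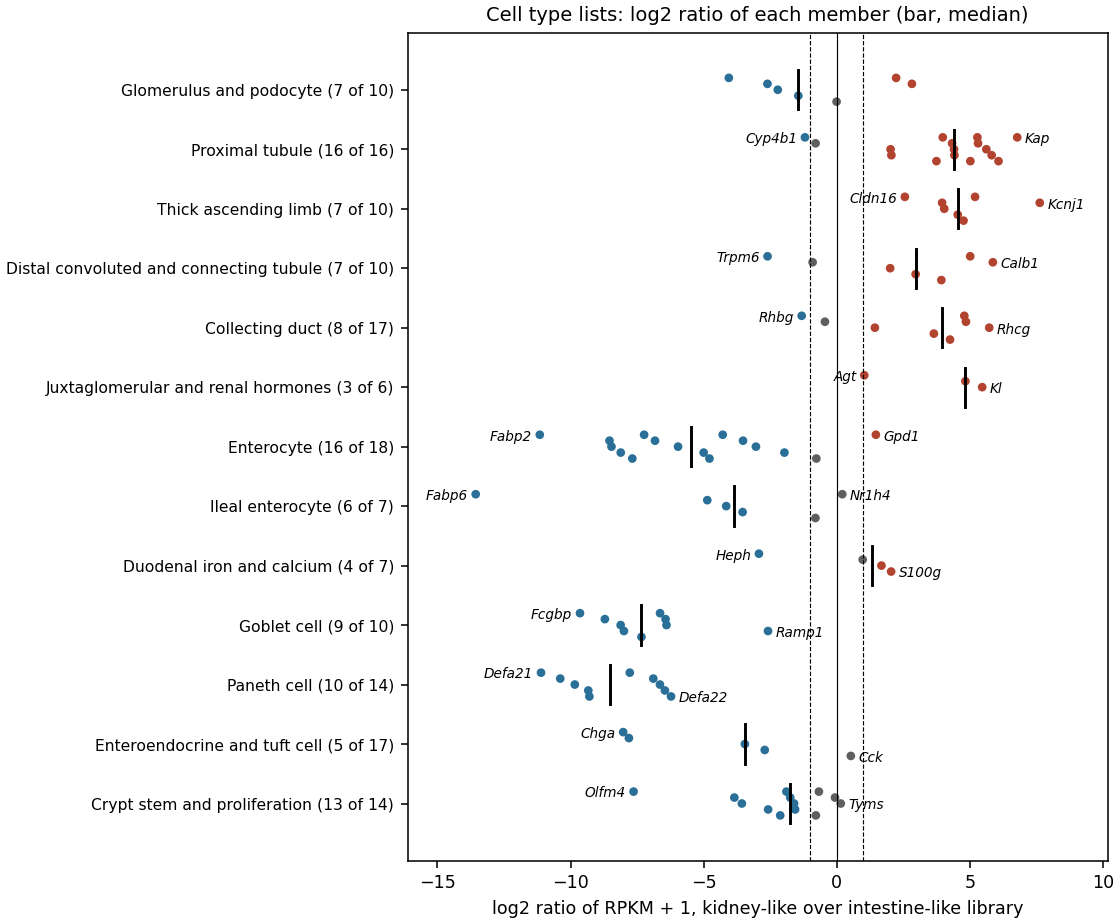
Log2 ratio of RPKM + 1, kidney-like over intestine-like, for each member of the 13 nephron and intestinal cell type lists, with the number of members and of list genes in brackets, in the same colours as the plot of the transport lists, and with the lowest and highest member named except in the podocyte list. Nephron segments other than the podocyte list lie to the right, with medians from 2.96 to 4.83, and the enterocyte, ileal, goblet and Paneth lists to the left, with medians from -8.53 to -3.85, while the duodenal list has a median of 1.33.

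Markers of each organ were also found in the other library, at unequal shares of their own-library level. Over 15 proximal tubule mRNAs with 100 or more reads in the kidney-like library, the level in the intestine-like was between 0.0819% and 231% of it, with a median of 4.27%, and over 8 of the thick ascending limb it was between 0% and 5.86%, with a median of 3.16%. Umod stood at 2.73%, Slc12a1 at 4.16% and Egf at 3.58%, but Kcnj1 had no reads and Ptger3 and Ppp1r1a were not listed. In the other direction, the level in the kidney-like library had a median of 0.112% of that in the intestine-like over 12 Paneth cell mRNAs, 0.347% over 9 goblet cell mRNAs, 1.57% over 17 enterocyte mRNAs (from 0% to 282%), 5.33% over 7 ileal mRNAs, 28.04% over 12 crypt and proliferation mRNAs and 212% over 3 duodenal mRNAs. Over 12 enteroendocrine and tuft cell mRNAs it was 0%, with 9 at 0 or not listed. The part of other tissue in these levels, and so in ratios of mRNAs that are low on 1 side, was not tested.

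Other cell types differed as well. Smooth muscle and stroma mRNAs were higher in the intestine-like library for 11 of 13 members (Myh11 at 8.56 and 880.3 RPKM, Col3a1 at 366 and 1806 RPKM), and of 9 endothelial members 5 were higher in the kidney-like and none in the intestine-like (Flt1 at 19.5 and 3.34 RPKM). Of 4 plasma and B cell members 3, and of 7 T cell, myeloid and mast cell members 5, were higher in the intestine-like library. The mast cell protease Mcpt1 was listed only there, with 485 reads. Of hepatocyte mRNAs, Alb (albumin) was at 375 and 28.8 RPKM and Ttr (transthyretin) at 654 and 23.5 RPKM, and Fga and Fgb, of fibrinogen, were listed in the kidney-like library only, with 409 and 410 reads. Of lung mRNAs, Sftpc (surfactant protein C) was at 119.6 and 11.7 RPKM, against 39332 RPKM in the library labelled lung. Of 5 enteric neuron and glia members 4 were higher in the intestine-like library, with Vip at 0 against 637 reads, and all 3 erythroid members were higher in the kidney-like, with Alas2 listed only there (334 reads). Adrenal steroid and pancreatic acinar mRNAs had no member, and Clps, the lipase cofactor, was, with 117 reads in the intestine-like library, the only acinar mRNA with 10 or more reads in either library.

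The largest log2 ratios of all members were those of Defb1 (9.34, 943 and 0.454 RPKM), the beta-defensin of the distal nephron, Car14 (8.21, 323 and 0.0930 RPKM), a membrane carbonic anhydrase, and Acot2 (8.06, 303 and 0.138 RPKM), a mitochondrial thioesterase, toward the kidney-like library. Among the next were Kcnj1, Polr2l, Mix23, Gcnt1, Smim1, Gabarapl1, Gc, Acsm1, Fabp3, Slc22a12 and Nat8f1, each with 8 reads or fewer in the intestine-like library. Polr2l, Mix23 and Gabarapl1, which most cells use, had 1752, 54.9 and 282 RPKM in the highest of the other 4 libraries.

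Toward the intestine-like library the largest were Fabp6 (-13.56), Krt20 (-11.72, 2.06 and 10346 RPKM), a keratin of differentiated gut epithelium, Fabp2 (-11.16) and Muc13 (-11.13, 2.71 and 8294 RPKM), a membrane mucin. Antimicrobial mRNAs were among the first 15 as well, with Defa21 at 15.1 and 35598 RPKM, Reg3b at 18.6 and 26262 RPKM and Reg3g at 4.25 and 4815 RPKM. The other 8 were Adamdec1, Fcgbp, Gpa33, Myo1a, Naaladl1, Enpp7, Defa24 and Itln1. Levels of alpha-defensins are uncertain, since these genes are near-identical and reads that map to several places were dropped. Among mRNAs listed in only 1 of the libraries, those with the most reads were Galnt11 (1318 reads), Evc (739), Ren1, Pter (620) and Slc22a2 in the kidney-like, and Ccl25 (7740 reads), Plb1 (7421), H2-T5 (5938), Eps8l3 (5824) and Pnliprp2 (5338) in the intestine-like library.

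Codon composition was set beside these classes. Codons that end in G or C made up 59.3% of the codons with synonyms in the CDSs of both 8-fold classes, 55.1% in the shared members and 56.2% in all members. These values pool codons over mRNAs. Per mRNA, medians were 61.1% (kidney-like class), 61.2% (intestine-like class), 57.0% (shared) and 58.9% (all members). The ranges between quartiles overlapped widely, at 52.2 to 68.4% and 53.0 to 67.7% in the 8-fold classes against 49.6 to 66.5% in all members. The CDSs of both 8-fold classes were shorter, with medians of 1035 (kidney-like) and 1170 (intestine-like) bases, against 1512 in all members. The shared members had a median of 1318.5 bases. Membership is set in reads but the classes in RPKM, so a long CDS with few reads can be a member without reaching any of these classes. How much of the difference in length comes from this rule was not tested.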

How the data were processed

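Ribosome-protected fragments of 6 mouse tissues were deposited as 1 table per library of RPKM, which the authors computed per mRNA as reads on the CDS per kilobase of CDS, scaled to all reads on CDSs. Per the labels, Cutadapt and STAR with the GRCm39 build were used. The methods, which describe this for macrophage libraries, name Ensembl release 107, the mRNA with the longest CDS per gene, removal of reads under 15 nt, and exclusion of multi-mapped reads and of reads with more than 2 mismatches.

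Because RPKM values were whole multiples of the worth of 1 read (100% of values within 0.01 reads), read counts were recovered. Total reads on CDSs were 4504853 and 10635031, so that a count of 0 allows up to 3 reads. A log2 ratio of RPKM + 1 was taken for mRNAs listed in both libraries with 10 or more reads in either. Of these members, 176 were listed at 0 reads in the library labelled colon and 346 in that labelled brain. An mRNA that is not listed is thus not the same as one at 0. For levels in the other 4 libraries and for shares of the own-library level, unlisted mRNAs were counted as 0. Ratios of single mRNAs have exact (Clopper-Pearson) 95% intervals and shares of reads Wilson 95% intervals. Recovery of reads was run on simulated data for this comparison, over 13356 mRNAs, and returned 100% of them. That outcome is fixed once any simulated mRNA has 1 read. It therefore does not test whether the smallest deposited value stands for 1 read. Python 3.11.15 with numpy 2.4.6, pandas 2.3.3, scipy 1.17.1 and matplotlib 3.10.9 was used.

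The members and the 42 gene lists were chosen with earlier results of these data known, so their counts are descriptions. Genes named were members of these lists, both genes of each pair, the 15 largest log2 ratios each way and the 5 mRNAs with the most reads listed in only 1 library, each way. Exceptions are marked as chosen after values were seen. Some of these genes are not reported here. Stretches before mRNA starts and CDS sequences came from the GRCm39 assembly, with mRNA positions of GENCODE release M39. The library called kidney-like is labelled colon and the library called intestine-like is labelled brain. Alternatives to the pseudocount, read minimum, scaling and depth are given in the closing section.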

Additional observations from a re-analysis of the deposited data

How the results depend on the processing

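Each count over the 10146 members and over the transport mRNAs was recomputed under 9 other settings. Of 90 such values 77 stayed within 1.5 times and 13 moved further. Of 645 ratios of single mRNAs under these settings, 61 moved by more than their counting error and none changed direction. With a pseudocount of 10 RPKM in place of 1, 1557 members were 2-fold or more higher in the kidney-like and 1265 in the intestine-like library, 179 and 195 were 8-fold or more higher, and 28 transport mRNAs were 8-fold or more higher in the kidney-like library. With a pseudocount of 0.1 RPKM the 8-fold counts were 1425 and 958, and with mRNAs listed in only 1 library added they were 1145 and 837. With 10 or more reads required in both libraries, a setting chosen after seeing the data, 1928 members were 2-fold or more higher in the kidney-like library, 302 and 231 were 8-fold or more higher toward the kidney-like and the intestine-like library, and 18 transport mRNAs were 8-fold or more higher in the intestine-like library. No count moved further than 1.5 times when Kri1 was left out, when ratios were centred on their median, when the read minimum was 1 or 50, or when the deeper library was thinned to the total of the shallower. No paired analysis was possible because there was 1 library per tissue label. With 1 library a side, the difference between animals or between preparations is unknown, and the lower side of many 8-fold ratios rests on fewer than 10 reads.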
